A study of Arabidopsis thaliana with 8 samples.

Results

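On an array of Arabidopsis thaliana transcripts, 56 rows that each list 2 or more genes had a higher signal in 4-week-old than in 1-week-old plants. They were chosen from the deposited signals by 4 conditions. A row had to list several genes in the platform annotation, to have a mean signal over all 8 samples of at least 0.1 and under 2, to have every 4-week sample above every 1-week sample, and to have a 4-week mean at least 2 times the 1-week mean. Of the 3439 rows of the table, 870 list several genes, and 708 of these lie in the signal window. The 56 rows list 130 different protein-coding genes. A signal of such a row may come from any of the genes it lists, so each value below belongs to the row and not to a single gene.

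All samples were total RNA of wild-type plants of the ecotype Columbia-0, the standard laboratory accession of thale cress, with 4 samples at an age of 1 week and 4 at 4 weeks. The labels name no organ, growth condition or treatment, and they do not tell separate plants from repeat measurements, so the spread given here may be technical. Signals are array intensities in arbitrary units. Their sums per sample ran from 3070 to 3374, and in each sample between 11.3% and 13.6% of the rows had a signal of 0. Marker genes for root, flower, seed, senescence, dividing cells and photosynthetic leaf were looked for, 31 in total. Only the histone H3 gene AT1G09200 and RCA, for Rubisco activase, were named on the array. The row of AT1G09200 had 0.769 ± 0.0745 at 1 week and 0.850 ± 0.0881 at 4 weeks (mean ± SD). RCA was listed only with AT1G73110, in 2 rows, of which 1 had 0.909 ± 0.128 and 1.17 ± 0.204. The other was at 0 at 1 week and had a mean of 0.0003 at 4 weeks. The organs in each sample were thus left unchecked. In bulk RNA such as this, fewer cells of a type and less RNA per cell cannot be told apart.

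Arabidopsis carries many pairs of related genes left by an ancient doubling of its genome, and other related genes lie side by side as tandem copies. Related genes can share enough sequence for one array feature to take up transcripts of each, and related genes often differ in the organ or age at which they are expressed. Between seedling and rosette stage a plant moves from cotyledons and first leaves to a rosette of expanded leaves. Many of the families named below work in plastids, cell walls, protein turnover, gene expression or membrane traffic.

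Among the multi-gene rows in the signal window, 7.91% met all conditions for a higher signal at 4 weeks. The same conditions without the one on several genes were met by 8.33% of the single-gene rows in the window, by 11.1% of the unnamed rows and by 9.7% of all rows. The mirrored rule, with every 1-week sample above and a 1-week mean at least 2 times the 4-week mean, gave 86 of the 708 multi-gene rows in the window. For this direction no share over other kinds of rows is given here. In 183 multi-gene rows of the window (25.8%) the 4-week samples lay above the 1-week samples without overlap, and 127 of these had a ratio of means under 2. Another 22 rows had a ratio of at least 2 with overlapping samples. The bounds on the mean signal left out 2 rows below the window and 2 above it. Since these signals chose the rows, the age differences of the 56 rows are descriptions and carry no test.

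**Figure D1:**
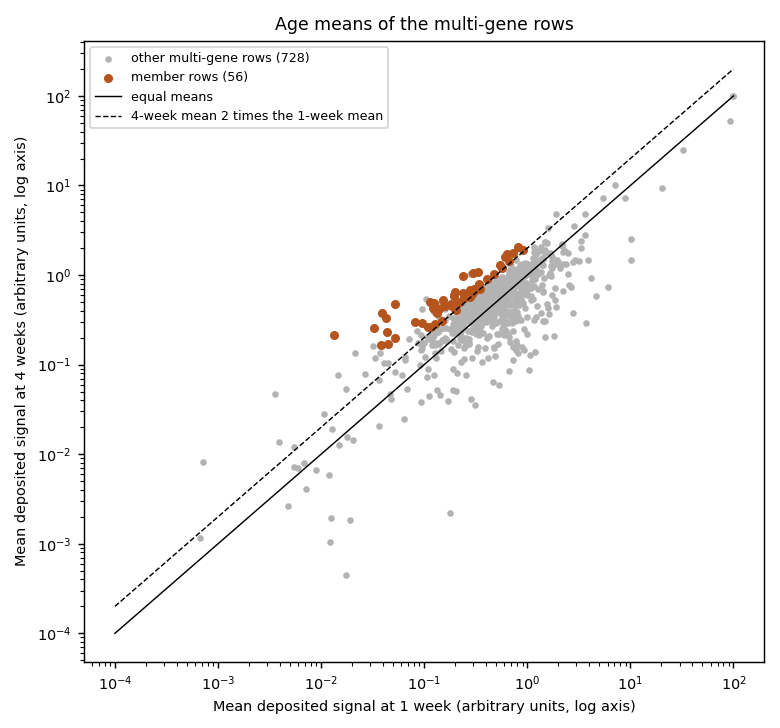
Mean deposited signal of the multi-gene rows at 1 week (x axis, log scale) and at 4 weeks (y axis, log scale), in arbitrary units; 86 rows with a mean of 0 at an age cannot be drawn. The 56 member rows (large points) lie above the dashed line of a 2-fold higher mean at 4 weeks, at 1-week means between 0.0133 and 0.908.

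The ratio of the 4-week to the 1-week mean ran from 2.03 to 16.1 over the 56 rows, with a median of 2.64. It was under 2.5 in 25 rows, 2.5 to 3 in 9, 3 to 4 in 13 and 4 or more in 9. The median signal per sample of the table ran from 0.390 to 0.453. The mean over all samples of the 56 rows had a median of 0.329 and was under 0.5 in 40 of the 56. The median coefficient of variation was 29.5% at 1 week and 18.6% at 4 weeks, against 18.6% and 15.5% over all multi-gene rows in the window. The distance between the ages also varied. The lowest 4-week sample was over 1.5 times the highest 1-week sample in 29 rows, and under 1.1 times it in 4.

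Of the 56 rows, 55 had at least 3 measured samples in each age and entered a limma fit of quantile-normalized log2 signals over all rows. All 55 passed at a limma adjusted p under 0.05, against 25.3% of all tested rows and 23.9% of tested multi-gene rows called higher at 4 weeks. Nothing is read from that count, because the rule used the same comparison. Their median log2 difference was 1.41, beside 0.16 over all 2924 tested rows and 0.11 over the 740 tested multi-gene rows. The row left out was that of AT1G67480, AT1G27420 and AT1G27410, with 3 of the 1-week samples at 0.

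In the values that follow, the 4 signals of an age are given in the order of sample numbers 1 to 4, means are given with an SD over n = 4, and log2 differences (4 weeks minus 1 week) and their standard errors come from the limma fit. The plot of all samples shows the 56 rows together.

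**Figure D2:**
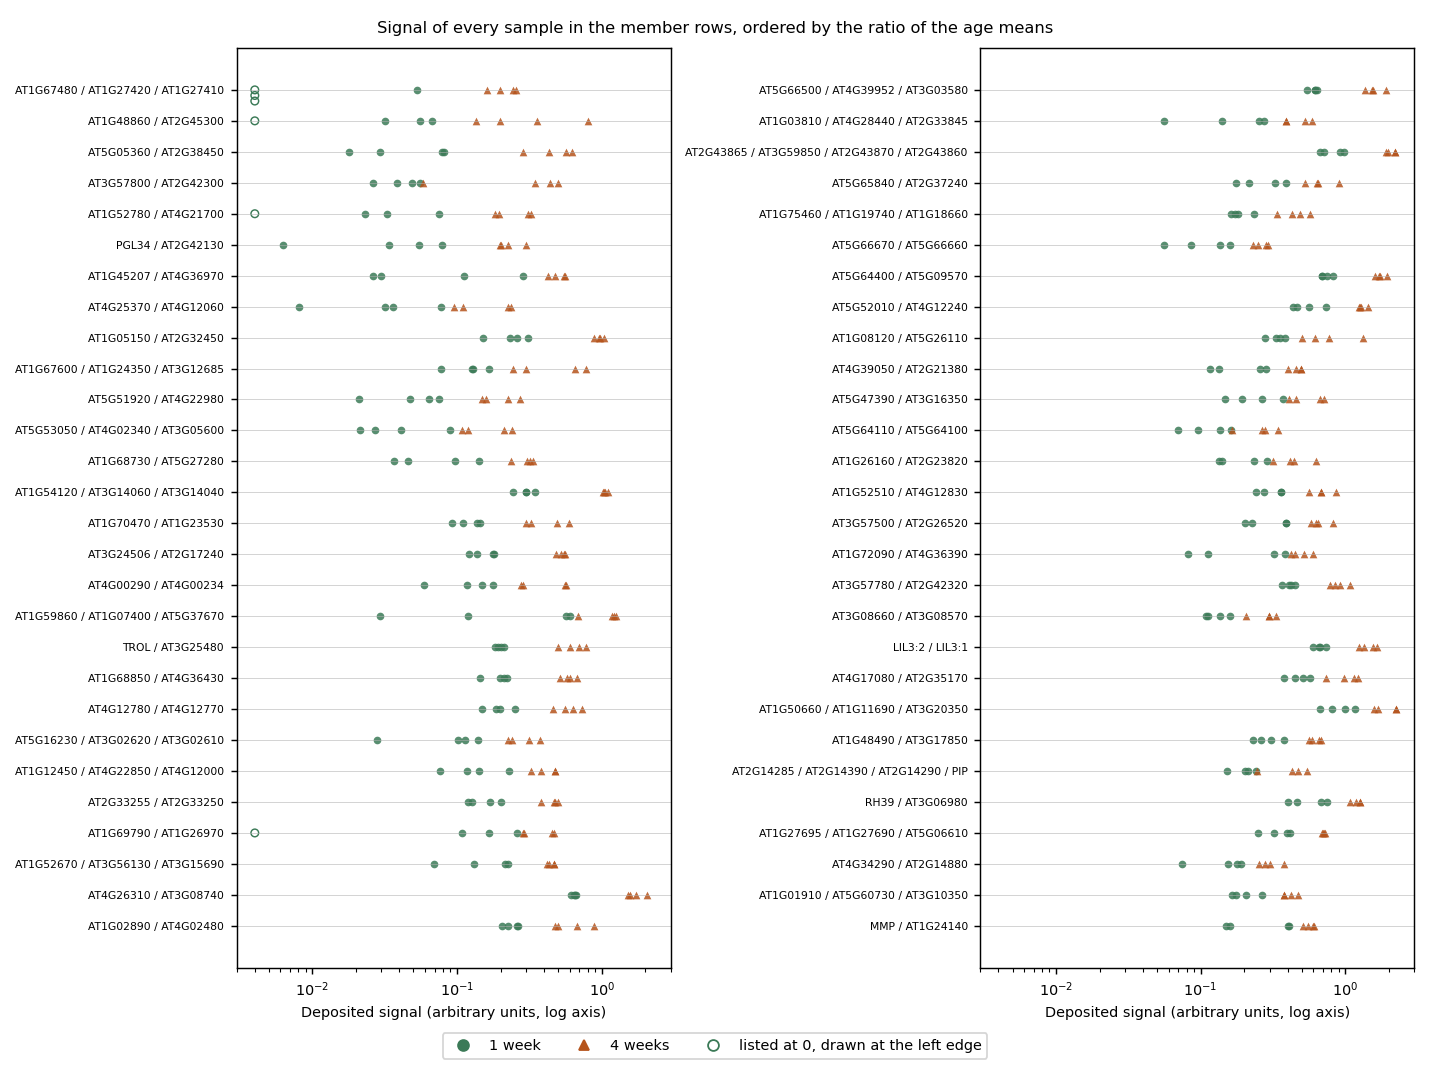
Deposited signal of every sample (x axis, arbitrary units, log scale) in the 56 member rows, ordered from the highest ratio of age means (16.1, top left) to the lowest (2.03, bottom right). Circles are 1-week samples and triangles 4-week samples; open circles mark the 6 signals listed at 0, which a log axis cannot show at their value. In each row all triangles lie to the right of all circles, as the choice of rows requires.

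Of the rows whose genes have a known role in plastids, 8 were found, with ratios from 2.09 to 9.68. The largest was that of AT1G48860 and AT2G45300, which both encode EPSP synthase, the enzyme of the shikimate pathway to aromatic amino acids that the herbicide glyphosate blocks. Its signals were 0.0317, 0.0552, 0.0675 and 0 at 1 week and 0.199, 0.136, 0.803 and 0.357 at 4 weeks. The 4-week samples were thus spread widely, with sample 3 far above the others, and the means were 0.0386 ± 0.0297 and 0.374 ± 0.301 (log2 difference 2.42, SE 0.63, with the 0 left out).

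PGL34 encodes a plastoglobulin, a protein of the lipid droplets attached to thylakoids, and AT2G42130 belongs to the same fibrillin family. Their row had 0.0787, 0.0550, 0.0337 and 0.00627 at 1 week and 0.300, 0.224, 0.197 and 0.200 at 4 weeks (ratio 5.30, log2 difference 2.69, SE 0.77). The older samples lay close together, and the younger ones ran over more than a factor of 10. AT4G25370 and AT4G12060 encode accessory subunits of the plastid Clp protease, which degrades proteins of the stroma. Here the signals were 0.00806, 0.0319, 0.0775 and 0.0362 against 0.224, 0.110, 0.237 and 0.0956, so that the lowest 4-week sample was just 1.23 times the highest 1-week sample (log2 difference 2.15, SE 0.73).

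TROL, a rhodanese-like protein of the thylakoid that binds ferredoxin-NADP reductase, shares its row with AT3G25480, for another rhodanese-like protein. The row had tight 1-week signals of 0.192, 0.213, 0.201 and 0.184, and 4-week signals of 0.599, 0.785, 0.699 and 0.495 (ratio 3.27, log2 difference 1.60, SE 0.17). LIL3:2 and LIL3:1 encode light-harvesting-like proteins that hold enzymes of late chlorophyll synthesis at the thylakoid membrane. Their signals were 0.667, 0.656, 0.601 and 0.735 in the younger plants and 1.56, 1.66, 1.24 and 1.34 in the older ones (ratio 2.18, log2 difference 1.16, SE 0.15). In both rows the gap between the ages was wide beside the spread within them.

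RH39 is a DEAD-box RNA helicase needed for the maturation of a plastid ribosomal RNA, and AT3G06980 encodes a related helicase. Samples 1 and 2 were brighter than samples 3 and 4 at both ages in this row, with 0.744, 0.682, 0.461 and 0.404 at 1 week and 1.26, 1.25, 1.08 and 1.19 at 4 weeks (ratio 2.09, log2 difference 1.11, SE 0.22). The remaining plastid rows belong to fatty acid metabolism. AT1G52670, AT3G56130 and AT3G15690 encode BADC proteins, which resemble the biotin carrier of plastid acetyl-CoA carboxylase without carrying biotin and lower its activity. Their row went from a mean of 0.160 ± 0.0735 to 0.446 ± 0.0235, with older samples between 0.422 and 0.467. AT5G16230, AT3G02620 and AT3G02610 encode acyl-carrier-protein desaturases, which put the first double bond into plastid fatty acids. The row had 0.0956 ± 0.0475 and 0.289 ± 0.0684 (ratio 3.03).

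Cell wall enzymes and class III peroxidases, secreted enzymes that act on wall polymers and reactive oxygen, made up 4 rows. The brightest of all 56 rows at 4 weeks lists AT2G43865, AT3G59850, AT2G43870 and AT2G43860, of which the last 3 encode proteins of the pectin-cleaving polygalacturonase type. Its signals were 0.707, 0.667, 0.972 and 0.918 at 1 week and 1.97, 1.90, 2.19 and 2.20 at 4 weeks, with means of 0.816 ± 0.151 and 2.07 ± 0.15 (log2 difference 1.41, SE 0.13). The lowest older sample was 1.96 times the highest younger one. AT3G14040, another gene of the polygalacturonase type, is listed with AT1G54120 and AT3G14060, whose roles are not given here. That row was among the most even of all, with 0.246, 0.299, 0.301 and 0.344 against 1.06, 1.1, 1.02 and 1.04 (ratio 3.55, log2 difference 1.81, SE 0.12).

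Both peroxidase rows were dimmer. The row of AT1G68850 and AT4G36430 had 0.194 ± 0.0345 at 1 week and 0.590 ± 0.0678 at 4 weeks (ratio 3.05, log2 difference 1.53, SE 0.15). That of AT5G64110 and AT5G64100, which are neighbours on the chromosome, had 0.136, 0.161, 0.0694 and 0.0951 and then 0.277, 0.343, 0.163 and 0.264. Its ages barely separated, since 4-week sample 3 was 1.01 times 1-week sample 2, the smallest gap of all 56 rows.

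Protein folding, breakdown and delivery to membranes gave 7 rows with ratios from 2.03 to 3.71. The row of the AAA-type ATPase genes AT1G02890 and AT4G02480 is counted among them. AT1G68730 and AT5G27280 encode zinc finger proteins of the Zim17 type, which assist organellar Hsp70 chaperones. Their row had 0.0806 ± 0.0493 at 1 week and 0.299 ± 0.0439 at 4 weeks. AT1G59860, AT1G07400 and AT5G37670 encode small heat shock proteins, chaperones that bind unfolded proteins. The signals were 0.607, 0.569, 0.0293 and 0.119 at 1 week and 1.18, 1.26, 0.688 and 1.22 at 4 weeks. Samples 1 and 2 of the younger plants were thus several times brighter than samples 3 and 4, and 4-week sample 3 was well below its group (log2 difference 2.38, SE 0.85, the largest SE of the 55 fitted rows).

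AT1G75460 and AT1G19740 encode proteins with the N-terminal domain of the Lon protease, and they share a row with AT1G18660 (0.188 ± 0.0324 and 0.455 ± 0.0980). AT1G02890 and AT4G02480 encode AAA-type ATPases, and their row went from 0.239 ± 0.0283 to 0.634 ± 0.192. Proline iminopeptidase (PIP), which cleaves proline from the start of peptides, is listed with AT2G14285, AT2G14390 and AT2G14290. This row had 0.151, 0.201, 0.240 and 0.212 and then 0.247, 0.546, 0.472 and 0.428, so 4-week sample 1 was only 1.03 times 1-week sample 3.

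Just inside the limit of a 2-fold mean were the rows of MMP with AT1G24140 and of AT1G01910 with AT5G60730 and AT3G10350. MMP encodes a matrix metalloproteinase, an enzyme that cuts extracellular proteins. The signals of its row were 0.402, 0.408, 0.149 and 0.160 at 1 week and 0.550, 0.510, 0.611 and 0.597 at 4 weeks. The younger samples formed a high and a low pair while the older ones were even, and the ratio was 1.31 in samples 1 and 2 and 3.91 in samples 3 and 4. The other row lists genes for GET3-type ATPases, which deliver tail-anchored proteins to membranes, with 0.203 ± 0.0454 and 0.412 ± 0.0455 (ratio 2.03, log2 difference 0.92, SE 0.17).

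In gene expression, 8 rows list transcription factors, RNA-binding proteins or factors of translation. AT3G57800 and AT2G42300 encode transcription factors of the bHLH family. Their row had 0.0551, 0.0490, 0.0263 and 0.0383 at 1 week and 0.502, 0.347, 0.436 and 0.0583 at 4 weeks. The means differed 7.97-fold, but 4-week sample 4 lay at the level of the younger samples, 1.06 times the highest of them (log2 difference 2.34, SE 0.73). AT5G47390, known as KUA1 or MYBH, is a MYB-type transcription factor linked to hypocotyl elongation, and AT3G16350 is listed with it. That row had 0.368, 0.267, 0.148 and 0.193 and then 0.710, 0.670, 0.456 and 0.410, again with samples 1 and 2 above samples 3 and 4 at both ages (ratio 2.30, log2 difference 1.13, SE 0.31).

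The rows of the elongation factor P family and of pentatricopeptide repeat genes were brighter and more even than those of bHLH and MYB type. AT4G26310 and AT3G08740 encode proteins of the elongation factor P family, which help ribosomes through proline stretches in bacteria. The row had 0.666, 0.640, 0.655 and 0.610 at 1 week, the smallest coefficient of variation of the 56 rows at that age (3.78%), and 1.56, 1.52, 2.06 and 1.73 at 4 weeks (log2 difference 1.44, SE 0.11). AT5G66500, AT4G39952 and AT3G03580 encode pentatricopeptide repeat proteins, a large plant family that binds organellar transcripts. Here the signals were 0.615, 0.542, 0.639 and 0.620 against 1.52, 1.36, 1.92 and 1.56 (ratio 2.63, log2 difference 1.45, SE 0.12). In both rows every older sample was over 2 times every younger one.

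AT5G52010 and AT4G12240 encode C2H2 zinc finger proteins, and their row had 0.548 ± 0.137 and 1.3 ± 0.0908 (log2 difference 1.3, SE 0.18). AT4G34290 and AT2G14880 encode proteins with a SWIB domain, known from chromatin-remodelling complexes, with signals of 0.0746, 0.154, 0.179 and 0.191 and then 0.302, 0.254, 0.278 and 0.379 (ratio 2.03). The row of the OB-fold proteins AT1G03810, AT4G28440 and AT2G33845 went from 0.181 ± 0.102 to 0.473 ± 0.101, and that of AT1G72090 and AT4G36390, for enzymes of the methylthiotransferase family that modifies transfer RNA, from 0.224 ± 0.149 to 0.497 ± 0.0813. The latter had a ratio of 1.5 in samples 1 and 2 and 4.83 in samples 3 and 4.

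Signalling, cytoskeleton and membrane traffic made up 10 rows with ratios from 2.12 to 4.45. AT1G05150 and AT2G32450, for calcium-binding proteins with tetratricopeptide repeats, had one of the clearest separations, with 0.232, 0.311, 0.152 and 0.258 at 1 week and 0.978, 1.04, 0.955 and 0.883 at 4 weeks (ratio 4.05, log2 difference 2.01, SE 0.20). AT1G45207 and AT4G36970 encode remorins, plant proteins of plasma membrane domains. Their row had even older samples (0.557, 0.553, 0.477 and 0.423) and scattered younger ones (0.0262, 0.111, 0.0300 and 0.284), and the log2 difference was 2.64 (SE 0.67).

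AT4G00290 encodes MSL1, a mechanosensitive channel of mitochondria, and shares its row with AT4G00234, a gene with 6 others between them on the chromosome. Samples 1 and 2 were brighter than samples 3 and 4 at both ages, with 0.178, 0.149, 0.0589 and 0.117 and then 0.559, 0.570, 0.277 and 0.287, and the ratio was 3.45 in the former and 3.20 in the latter. The row of the neighbouring auxilin-like genes AT4G12780 and AT4G12770, whose products help strip clathrin from vesicles, had 0.196 ± 0.0412 and 0.596 ± 0.112. AT1G12450, AT4G22850 and AT4G12000, for SNARE-associated Golgi proteins, had 0.140 ± 0.0639 and 0.414 ± 0.0732. The kinesin genes AT4G39050 and AT2G21380, for motor proteins on microtubules, had 0.198 ± 0.0847 and 0.463 ± 0.0436.

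A pair of rows lists protein kinase genes. That of AT1G69790 and AT1G26970 had 0.259, 0.166, 0 and 0.108 and then 0.456, 0.466, 0.288 and 0.287, with 4-week sample 4 at 1.11 times 1-week sample 1. That of AT1G48490 and AT3G17850, for kinases of the AGC class, had 0.293 ± 0.0619 and 0.621 ± 0.0551 (ratio 2.12). AT3G08660 and AT3G08570 belong to the NPH3 family of phototropic signalling (0.129 ± 0.0232 and 0.282 ± 0.0546). AT4G17080 and AT2G35170 encode MORN-repeat proteins (0.475 ± 0.0838 and 1.02 ± 0.217).

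Among other enzymes, 5 rows had ratios from 2.25 to 3.96. AT1G67600, AT1G24350 and AT3G12685, related to acid phosphatases, had 0.165, 0.127, 0.0780 and 0.128 at 1 week and 0.778, 0.652, 0.243 and 0.301 at 4 weeks. The older samples fell into a bright and a dim pair, and the ratio was 4.90 in samples 1 and 2 and 2.64 in samples 3 and 4. AT5G53050, AT4G02340 and AT3G05600, for alpha/beta hydrolases of the epoxide hydrolase type, had 0.0449 ± 0.0311 and 0.170 ± 0.0656. Another pair of alpha/beta hydrolase genes, AT1G52510 and AT4G12830, had 0.307 ± 0.0593 and 0.693 ± 0.123. The row of AT5G65840 and AT2G37240, of the thioredoxin superfamily, had 0.276 ± 0.0985 and 0.678 ± 0.164, and that of AT1G26160 and AT2G23820, for phosphohydrolases with an HD domain, had 0.199 ± 0.0754 and 0.451 ± 0.130.

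For the other 14 rows no role is given here for the row as a whole. The highest ratio of all, 16.1, was that of AT1G67480 and AT1G27420, for kelch-repeat proteins, and AT1G27410, the direct neighbour of AT1G27420. Its signals were 0, 0.0532, 0 and 0 at 1 week and 0.243, 0.161, 0.198 and 0.254 at 4 weeks. With 3 younger samples listed at 0, the ratio rests on a single measured value. AT5G05360 and AT2G38450 had 0.0807, 0.0292, 0.0793 and 0.0179 and then 0.429, 0.287, 0.562 and 0.623, the widest gap of the 56 rows (lowest older sample 3.55 times the highest younger one; log2 difference 3.21, SE 0.51). AT1G52780 and AT4G21700 had 0.0326 ± 0.0313, with 1 sample at 0, and 0.253 ± 0.0747.

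Both bright rows of this group were more even. AT5G64400 and AT5G09570, for small proteins with paired CX9C motifs, had 0.815, 0.688, 0.688 and 0.749 against 1.72, 1.60, 1.73 and 1.95 (ratio 2.38, log2 difference 1.3, SE 0.11). AT1G50660, AT1G11690 and AT3G20350 had 0.664, 0.804, 1.17 and 0.994 against 1.57, 1.67, 2.22 and 2.25 (ratio 2.13). AT1G27695, AT1G27690 and AT5G06610 had the most even older samples of all rows, 0.698, 0.725, 0.710 and 0.690, after 0.322, 0.394, 0.412 and 0.249 (ratio 2.05).

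The remaining 8 had the following ratios. It was 3.86 for AT5G51920 and AT4G22980, 3.54 for AT1G70470 and AT1G23530, 3.43 for AT3G24506 and AT2G17240, and 2.94 for the neighbours AT2G33255 and AT2G33250. It was 2.41 for the neighbours AT5G66670 and AT5G66660 and 2.37 for AT1G08120 and AT5G26110, where 4-week sample 4 (1.32) stood above the others (0.50 to 0.770). For AT3G57500 with AT2G26520 it was 2.22, and for AT3G57780 with AT2G42320 it was also 2.22. Among these 8, the older samples were most even for AT3G24506 and AT2G17240, with means of 0.154 ± 0.0285 and 0.527 ± 0.0302.

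Just outside the limit of 2 were the row of AT4G38550 and AT2G20950, with a ratio of 1.99 (0.159 ± 0.0679 and 0.316 ± 0.0407), and that of YUC6 and YUC2, genes of auxin synthesis, with 1.99 (0.237 ± 0.0181 and 0.470 ± 0.147). Nearest to the signal window but outside it was the row of the glycosyl hydrolase genes GH9B18 and GH9B17 with AT3G42155, whose mean over all samples was 0.0976, and then that of AT5G08720 and AT4G01650, with 2.45. Their ratios were 5.14 and 2.11. The rows next to the limit on the ratio thus had nearly the same ratio as the lowest members (2.03), whereas the row above the window was well brighter than any member.

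The rule did not use how many genes a row lists beyond the first 2, or where they lie. Of the 56 rows, 40 list 2 genes, 14 list 3 and 2 list 4, and these shares (71.4%, 25% and 3.57%) were near those of all multi-gene rows (74.5%, 20.2% and 4.71%). In 8 rows a pair of the listed genes are direct neighbours among the protein-coding genes of the reference annotation, and in 12 (21.4%) at most 10 genes lie between a pair, against 16.8% of all multi-gene rows. In the other rows the listed genes lie farther apart or on different chromosomes.

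Other rows that list the same genes were not chosen for their signals, and most did not share the age difference. Of the 56 rows, 24 list a gene that another row also lists (42.9%, against 43.7% of all multi-gene rows), which gave 25 such rows. None of the 25 met the rule, which 7.91% of the multi-gene rows in the signal window met. Several could not meet it: 3 list a single gene, 2 were at 0 throughout, and others had a mean outside the window. Nothing is read from the absence. Every 4-week sample was above every 1-week sample in 2 of the 25, against 25.8% of the multi-gene rows in that window. The 25 include single-gene rows and rows outside the window, so these shares are of unlike sets. Every 4-week sample was below in 2, those of AT5G05360 with AT2G38450 and of AT4G22850 with AT4G12000. No share over other rows is given here for that direction, so nothing is read from this count. The ages overlapped in 21 of the 25, of which 2 were listed at 0 in all 8 samples. In the 22 with a ratio above 0, the median ratio of the 4-week to the 1-week mean was 1.00, and 20 had a ratio under 1.5. The median over all multi-gene rows was 1.1. Compared between samples of the same number, the 4-week signal was higher in all 4 numbers in 6 of the 25 rows and lower in all 4 in 5. Over all multi-gene rows these shares were 34.1% and 26.0%. The member rows were chosen for their ratio and the others were not, so no test of the difference is given.

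In 14 of the 25 the gene list was the same as that of the member row, and the median ratio of the 12 with a value was 0.98. The second row of AT5G05360 and AT2G38450 had 0.769, 0.717, 0.739 and 0.977 at 1 week and 0.530, 0.50, 0.516 and 0.638 at 4 weeks. Its older samples were all below the younger ones, at a ratio of 0.68 where the member row had 9.18. The second row of the Clp genes AT4G25370 and AT4G12060 had a ratio of 0.73 (0.848 ± 0.196 and 0.617 ± 0.163), and that of LIL3:2 and LIL3:1 had 0.72 (0.768 ± 0.194 and 0.551 ± 0.104). In both the ages overlapped, but the 4-week sample was below the 1-week sample of the same number in all 4 numbers. The second rows of PGL34 with AT2G42130, and of AT1G69790 with AT1G26970, were at 0 throughout.

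A higher signal at 4 weeks in both rows of a gene pair was seen for AT1G70470 and AT1G23530, whose second row had a ratio of 1.44 without overlap (0.387 ± 0.0316 and 0.558 ± 0.0321). For AT1G54120 and AT3G14060, the second row, which lists just these 2, had 1.37 without overlap (0.242 ± 0.0381 and 0.331 ± 0.0167). The second row of AT1G05150 and AT2G32450 had a ratio of 3.66, close to the 4.05 of the member row, and although its ages overlapped, the 4-week sample was the higher in all 4 numbers. Its signals were 0.00710, 0.0243, 0.475 and 0.608 and then 0.375, 0.753, 1.51 and 1.44, with samples 3 and 4 far above samples 1 and 2 at both ages. The second row of AT1G26160 and AT2G23820 had a ratio of 1.53 (0.120 ± 0.0782 and 0.183 ± 0.0254). Its ages overlapped, and the 4-week sample was the higher in 3 of the 4 numbers.

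Rows naming 1 gene of a member row were available for AT5G16230, AT3G56130 and AT1G03810, with ratios of 1.02, 0.998 and 1.23 and overlapping ages in all 3. In that of AT1G03810 the 4-week sample was the higher in all 4 numbers, as it was in the second rows of AT3G02620 with AT3G02610 (ratio 1.19) and of AT5G52010 with AT4G12240 (1.28). The bright row of AT4G22850 and AT4G12000 went the other way from their member row, with 97.1, 96.6, 90.5 and 86.0 at 1 week and 52.5, 49.0, 56.8 and 52.3 at 4 weeks (ratio 0.57). Which of the listed genes, if any, each row measured was not tested.

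**Figure D3:**
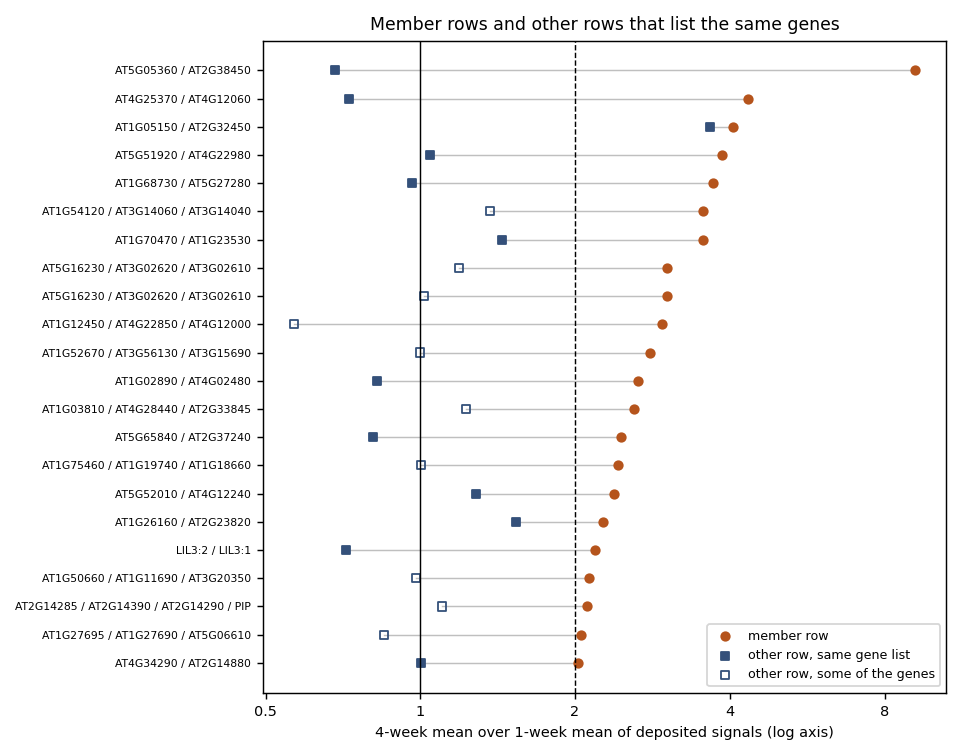
Ratio of the 4-week to the 1-week mean of deposited signals (x axis, log scale) for member rows (circles) and for the 22 other rows above 0 at both ages that list the same genes (filled squares: same gene list; open squares: some of the genes). Solid and dashed lines mark ratios of 1 and 2. The squares centre on a ratio of 1.00, and 1 of them, for AT1G05150 and AT2G32450, lies beyond the dashed line.

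Samples of the same age also differed by their number. Samples 1 and 2 lay above samples 3 and 4 at both ages in 12 rows (21.4%) and below them at both ages in 5 (8.93%). Among all multi-gene rows in the window the balance was the other way, with 13.3% above and 22.7% below. The labels do not say what the numbers mean. With the ages compared within sample numbers, the median ratio of the 56 rows was 2.44 in samples 1 and 2, and 2.97 over 55 rows in samples 3 and 4, where AT1G67480 had a 1-week mean of 0. It was at least 2 in 44 and 51 rows, and at least 2 in both in 39 of 55. It was larger in samples 3 and 4 in 34 rows and larger in samples 1 and 2 in 21. The part of the sample numbers in these ratios was not tested.

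**Figure D4:**
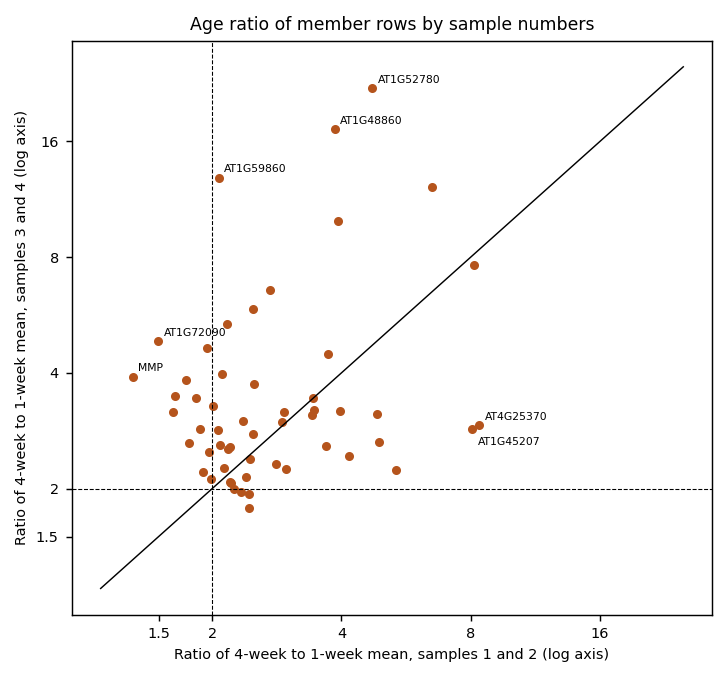
Ratio of the 4-week to the 1-week mean in samples 1 and 2 (x axis, log scale) and in samples 3 and 4 (y axis, log scale) for 55 member rows; the solid line marks equal ratios and dashed lines a ratio of 2. Labels give the first gene of rows far from the solid line, such as MMP (1.31 and 3.91) and AT1G59860 (2.07 and 12.9) above it and AT4G25370 (8.38 and 2.92) below it.

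Scaling decided the place of some rows in the set. After quantile normalization of the signals 42 of the 56 rows met the rule and no other row joined, and after median centring it was also 42 with no other row. Of the 14 rows lost by quantile normalization, 9 overlapped and 7 had a ratio under 2, with both in some rows. Both scalings kept 39 rows and both lost 11, among them the rows of MMP, PIP, AT5G47390, AT3G57800 and AT5G64110. The ratio of AT3G57800 and AT2G42300 was still 5.73 after quantile normalization and 7.55 after median centring, with overlapping ages.

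Keywords for 12 gene groups matched just 3 of the 56 rows, through symbols and synonyms: TROL for photosynthesis, PIP for protein fate and AT5G47390 for gene regulation. Of the 11 tested rows of any kind with a photosynthesis keyword, 5 were called higher at 4 weeks by limma, 1 was called lower and 5 were not called, with a median log2 difference of 0.60. Over all tested rows, 25.3% were called higher and 20.4% lower. Of the 10 for protein fate, 2 were called higher and 3 lower (median −0.05), and of the 12 for gene regulation, 4 higher and 2 lower (median 0.22). These counts include the member row of each group, which was chosen for its difference.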

How the data were processed

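The deposited table holds 1 array intensity per row and sample on a linear scale, from 0 to a ceiling of 100. The scanner, the background correction and the scaling that the authors used are not given in the sources used here. Depth over background is therefore unknown, and precision is limited by the number of arrays. Rows were named with GEO's platform annotation, and symbols were updated by gene number from a RefSeq table (TAIR assembly). All 130 listed genes were found there. As that table holds no product names, the keyword groups were matched to symbols and synonyms, where a keyword such as RING also hits other words. Roles come from general knowledge of the genes.

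The rule was applied to the signals as deposited. For the fit over all rows, 0 was missing, log2 values were quantile normalized, and rows needed 3 measured samples per age. The 2 rows at the ceiling in all samples were left out. R 4.3.3 with limma 3.58.1 (lmFit, eBayes, Benjamini-Hochberg, threshold 0.05) was used after a check on simulated data. Same-numbered samples of the ages deviated together (correlation 0.425 to 0.527 in all 4 pairs). The differences and standard errors given come from the fit without pairs, and the paired fit is an alternative. The pairing comes from the data and not the labels, and other numbers within 1 and 2 or within 3 and 4 correlated at 0.180 to 0.397. Numbers 1 and 2 correlated with 3 and 4 at −0.419 to −0.351. The samples thus also fell into numbers 1 and 2 and numbers 3 and 4. Alternatives were other scalings, a pseudocount, filters, leaving out samples, and the number as a block. Rows, roles and lists were chosen with earlier results of these data known. By rule, 29 rows were named for their ratio, 4-week signal, nearness to the limit or gene group. The other 27 are named so that all 130 genes appear, and those shown sample by sample were chosen after their values were seen. The table held 0 columns of other samples.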

Additional observations from a re-analysis of the deposited data

Results flagged for a closer look

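A sample far from the others of its age was looked for in the 112 age groups of the 56 rows, and 2 were found. In groups of 4 values without ties, chance marks about 1 in 20, a larger share than the 2 of 112 found. In the row of AT1G59860, AT1G07400 and AT5G37670, for small heat shock proteins, 4-week sample 3 had a signal of 0.688, while the next lowest of the age was 1.18. In the row of AT1G67480, AT1G27420 and AT1G27410, 1-week sample 2 had 0.0532 and the other samples of the age were listed at 0. Any value above 0 would have been marked there.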

How the results depend on the processing

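The number of multi-gene rows that met the rule was 56. It was 135 with a ratio of at least 1.5, 22 with at least 3, and 104 (52 of them among the 56) with samples 3 and 4 alone, an alternative chosen after seeing the data. It stayed within 1.5 times with samples 1 and 2 alone, also added later (57, of which 42 were among the 56), after both other scalings (42 each), without an upper or a lower bound on the mean signal (58 each) and without any 1 sample (56 to 67, with 51 to 55 of the 56 kept). The median log2 difference of the rows was 1.41, from 1.26 to 1.44 without any 1 sample, 1.39 on the values as deposited, 1.34 after median centring and 1.06 with a pseudocount of 0.0777. With the sample number as a replicate block it was 1.41, and all 55 tested rows passed, as in the fit without the block. The block moved the count of rows called higher at 4 weeks from 741 to 955 over all rows and from 177 to 223 over multi-gene rows. On the values as deposited 54 of the 55 passed, beside 819 of all 2924 tested rows called higher. After median centring it was again 54 of the 55, beside 723 of the 2924. As the rule used the same comparison, nothing is read from the counts of the 55. Without any 1 sample the counts called higher ran from 554 to 699 over all rows and from 127 to 163 over multi-gene rows. For the 28 fitted rows among the 29 named first, the alternatives gave 384 log2 differences. None of these turned its sign, and 19 moved by more than the spread within ages. The lowest was 0.36, for MMP in samples 1 and 2 alone. The rule had put every 4-week sample above every 1-week sample, so a turned sign was hardly possible. Nothing is read from its absence.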
